A study of Mus musculus with 12 samples.

Results

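The genes described here make cholesterol, control how much of it is made, or move and store it, and they were read in J774A.1 cells, a mouse macrophage-like line, after hypochlorous acid (HOCl), the oxidant that myeloperoxidase forms from hydrogen peroxide and chloride. They were chosen by gene symbol from a list of 31 genes of cholesterol synthesis, of its transcription factors of the SREBP family and of the liver X receptors (LXR). All 31 were found among the 28977 gene IDs of the deposited table, and 30 passed a filter of at least 1 FPKM in at least 3 of the 12 libraries, as did 12026 genes in all. FPKM is a fragment count scaled to exon length and to the depth of the library. Levels can therefore be set beside each other across genes, but only roughly. They depend on the exon length used and may depend on sequence shared with other genes.

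There were 4 groups of 3 messenger RNA libraries. One group of cells stayed in cell media, a second received the salt solution HBSS without HOCl (0 µM, the vehicle), and the others received HOCl at 20 µM or 100 µM in HBSS. The exposure lasted 1 h, and cells then spent 24 h in full medium before RNA was taken. All 4 groups were J774A.1 cells with no genetic change given in the labels, a single cell line grown in culture with serum. The labels do not say whether replicates were separate cultures, so every p-value reflects the spread among these libraries alone, which may be technical.

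Cells build cholesterol from acetyl-CoA. The mevalonate arm turns acetyl-CoA into isoprenoid units, and the squalene and sterol arm joins these into squalene, closes the rings and trims the result to cholesterol. When sterols in the endoplasmic reticulum are low, the escort protein SCAP carries SREBP to the Golgi, where it is cut and freed to switch on these enzymes, while INSIG holds the pair back when sterols are plentiful. LXRs are nuclear receptors that bind oxidised sterols and switch on export through ABCA1 and ABCG1, a route macrophages use to shed lipoprotein cholesterol.

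Each library's values rested on 17683937 to 21408518 reads, as recovered from the step size of low values. The first and second cell media libraries (replicates 1 and 2) differed from the rest. Over the genes that passed the filter they correlated with the other 10 at 0.946 to 0.971, against at least 0.974 among those 10. Ribosomal protein transcripts made up 13.1% and 12.9% of their FPKM, against 7.62% to 8.55% in the rest. Genes of large total exon length were low in both, and the members' results are therefore given with and without these libraries. All 8 macrophage markers were above the filter, and Lyz2 made up most of their sum in each library. That sum was 3446 to 3636 FPKM in cell media, 3325 to 3640 in HBSS, 3450 to 3639 at 20 µM and 3837 to 4355 at 100 µM. The lists of T cell, B cell, fibroblast, epithelial, endothelial and hepatocyte markers had 0 genes above the filter, and the highest sum of any of these lists in a library was 0.675 FPKM. In bulk RNA, fewer expressing cells and less RNA per cell cannot be told apart.

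Most of the pathway was expressed at moderate to high levels, and the order of levels was nearly the same in every library. Over the 10 libraries without cell media replicates 1 and 2, Scd2, a desaturase that puts a double bond into fatty acids, stood highest at 501 ± 42.1 FPKM (SD, n = 10), at percentile 99.5 of the genes that passed the filter. Soat1, which esterifies cholesterol for storage, followed at 69.4 ± 4.83, and Fasn, the fatty acid synthase, at 63.7 ± 4.65, with overlapping ranges of 63.1 to 76.9 FPKM for Soat1 and 55.2 to 69.1 for Fasn. Among the regulators Srebf2, which encodes the SREBP that mainly drives sterol genes, stood at 55.2 ± 2.36 FPKM, Insig1 at 31.1 ± 2.27, Srebf1 at 31.0 ± 1.57, which did not differ from Insig1 beyond their spread, and Scap at 5.11 ± 0.190. Sqle, the squalene epoxidase, was the highest enzyme of cholesterol synthesis at 52.2 ± 2.29 FPKM, while Fdps, the farnesyl diphosphate synthase, stood at 1.61 ± 0.280. The LXR pair was unequal. Nr1h2, which encodes LXRβ, stood at 16.5 ± 1.01 FPKM, and Nr1h3, which encodes LXRα and is the member that failed the filter, at 0.546 ± 0.101, which came from 18 to 34 reads per library. The coefficients of variation of the 30 members that passed the filter ran, over these 10 libraries, from 3.09% for Msmo1 to 17.4% for Fdps with a median of 7.33%, against a median of 9.39% over all 12026 genes. Ranks of the 30 members correlated between libraries at 0.952 to 0.998 in these 10, and at 0.868 to 0.998 in all 12, as a description of libraries that share their genes. Several members share sequence with other genes, so that the counting could have split or lost their reads. Acat2 shared 39.1% of its 50-base stretches with another gene, Fdft1 26.5%, Fdps 26.2% and Idi1 25.3%, and the low level of Fdps is uncertain for that reason.

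**Figure D1:**
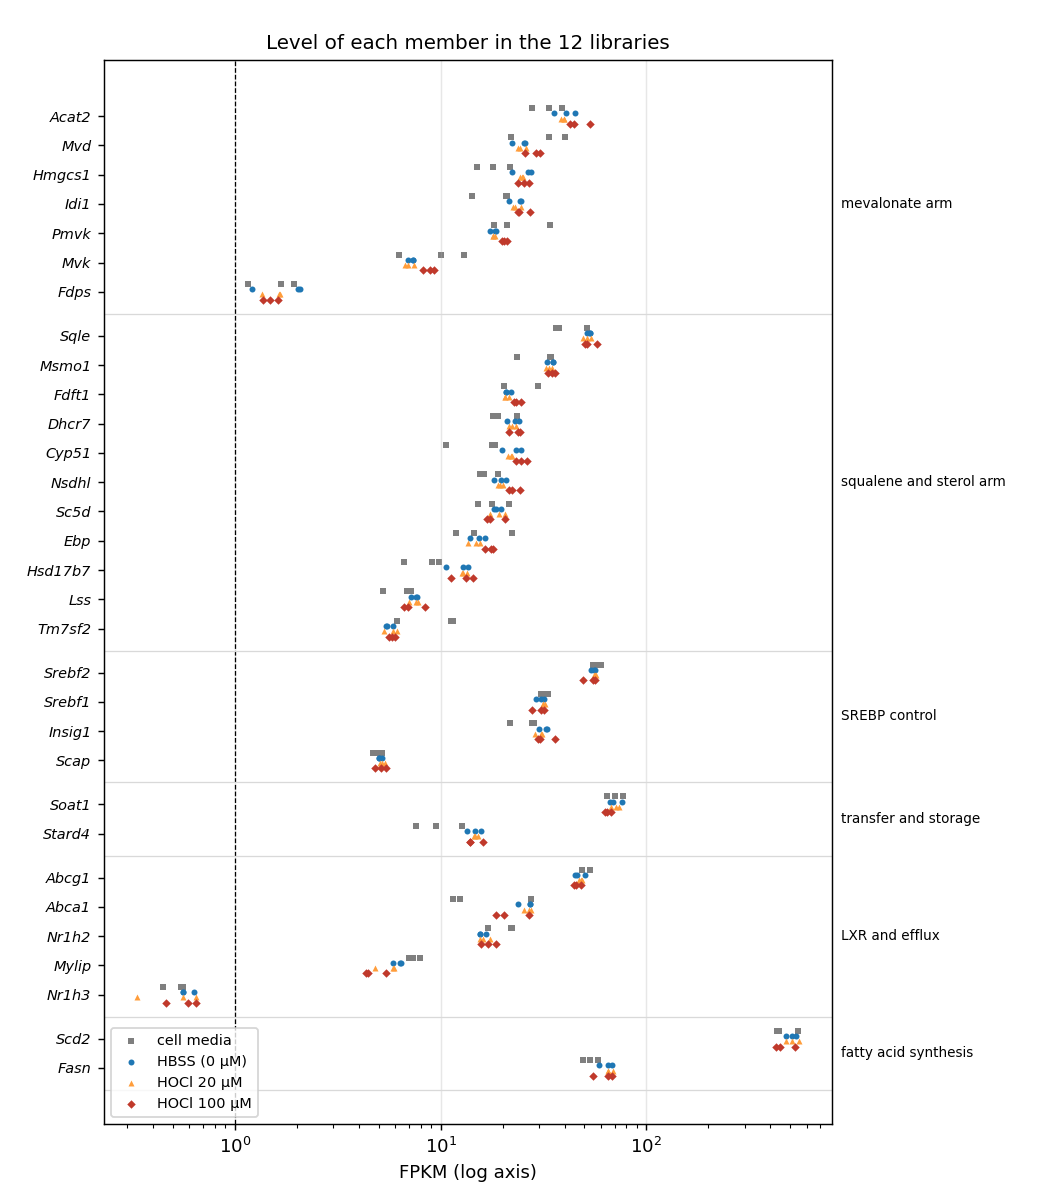
FPKM of the 31 members (log axis) in each of the 12 libraries, grouped by role, with 1 marker shape per treatment group and a dashed line at the filter of 1 FPKM. Members range from Nr1h3 under the line to Scd2 at 428 to 551 FPKM, and in 12 members both cell media replicates 1 and 2 lie outside the range of the other 10 libraries.

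Promoters are printed for 4 members that later results turn on: Hmgcs1, the member of smallest p between HBSS and cell media, and Mvk, Nsdhl and Mylip, which were among the members farthest from HBSS at 100 µM. Each is the 200 bases before the gene's start, 5′ to 3′, from RefSeq in the GRCm38.p6 build. Capitals mark the sterol response element letters TCACNCCAC, found in Hmgcs1 alone of the members searched, and the box CCAAT bound by the factor NF-Y, which reads ATTGG when it lies on the other strand. The windows are Hmgcs1 at chr13:119690151-119690350 on the plus strand, Mvk at chr5:114444069-114444268 on the plus strand, Nsdhl at chrX:72918321-72918520 on the plus strand and Mylip at chr13:45389542-45389741 on the plus strand.
Hmgcs1: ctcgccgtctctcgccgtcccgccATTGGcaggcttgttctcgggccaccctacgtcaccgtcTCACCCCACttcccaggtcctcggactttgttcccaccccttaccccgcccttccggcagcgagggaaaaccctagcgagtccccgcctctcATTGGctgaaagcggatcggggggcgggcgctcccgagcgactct
Mvk: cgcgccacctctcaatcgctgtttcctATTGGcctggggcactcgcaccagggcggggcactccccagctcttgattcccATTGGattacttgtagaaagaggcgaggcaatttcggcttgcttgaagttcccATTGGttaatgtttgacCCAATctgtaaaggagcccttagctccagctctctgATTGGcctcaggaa
Nsdhl: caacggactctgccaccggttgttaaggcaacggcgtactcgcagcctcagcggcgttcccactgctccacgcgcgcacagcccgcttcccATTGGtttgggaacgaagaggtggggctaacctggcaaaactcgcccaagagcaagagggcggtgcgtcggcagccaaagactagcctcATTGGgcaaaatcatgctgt
Mylip: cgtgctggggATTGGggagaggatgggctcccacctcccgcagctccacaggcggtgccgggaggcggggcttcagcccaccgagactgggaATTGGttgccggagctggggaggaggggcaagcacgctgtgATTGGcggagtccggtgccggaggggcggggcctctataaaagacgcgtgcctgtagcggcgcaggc
These 200 bases held 2 CCAAT boxes in Hmgcs1, 5 in Mvk, 2 in Nsdhl and 3 in Mylip.

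RefSeq promoter windows were matched for 25 of the 31 members, and a window of 250 bases before to 50 after the start was searched on both strands. At least 1 CCAAT lay in a window of 20 of the 25 members (80%), against 41.1% of the 27025 genes in the promoter table and 37.4% of its 32851 windows. The E-box CACGTG lay in 6 of the 25 (24%), Abca1, Dhcr7, Hsd17b7, Insig1, Sc5d and Scap, against 8.09% of the genes and 7.15% of the windows. The exact sterol response element letters lay in 1 of the 25 (4%), against 1.44% of the genes and 1.24% of the windows. These are matches of letters in short windows and describe neither binding nor control.

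At 100 µM HOCl, the pathway's genes stood near their levels in HBSS, and limma with Benjamini-Hochberg adjustment called 0 of the 30 members. It called 0% of the 12026 genes tested. At an unadjusted p under 0.05 there were 2 members, 1 higher and 1 lower, against 7.76% of all genes. On the 10 libraries the adjusted test still called 0 members, against 0.241% of all genes, and 7 members had an unadjusted p under 0.05, against 32.2% of all genes. Of the 30 members 18 stood above HBSS and 12 below it (median log2 difference 0.013), while 48.5% of all genes were higher with a median of −0.0063. The median of the members was −0.024 without HOCl 100 µM replicate 1, −0.014 without HBSS replicate 1, and at most 0.050, without HOCl 100 µM replicate 2. Without HOCl 100 µM replicate 1, 12 members were higher and 18 lower. The members' 95% confidence intervals reached from −0.82 to 0.65.

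Members of the mevalonate arm were higher at 100 µM in 6 of 7 cases, at a median of 0.16 on the log2 scale, or 0.086 once the trend on exon length, described further on, was removed. Mvk, the mevalonate kinase, had 8.84, 8.24 and 9.33 FPKM at 100 µM, against 6.95, 7.37 and 7.38 FPKM in HBSS. Each 100 µM library lay above each HBSS library, and the log2 difference was 0.25 (SE 0.18, limma adjusted p = 0.680, and 0.0589 on the 10 libraries). Mvd, the mevalonate diphosphate decarboxylase, had 30.6, 25.6 and 29.1 FPKM at 100 µM, against 22.2, 25.6 and 25.3 FPKM in HBSS. Its groups touched at 25.6, and the difference was 0.21 (SE 0.17, limma adjusted p = 0.691). Acat2, the thiolase that condenses acetyl-CoA at the start of the pathway, had 52.9, 42.4 and 44.7 FPKM at 100 µM, against 35.7, 44.8 and 40.5 FPKM in HBSS. The groups overlapped, 100 µM replicate 1 stood highest, and the difference of 0.20 (SE 0.13, limma adjusted p = 0.669) was 0.11 without that library. Pmvk, the next kinase after Mvk, also had groups that did not overlap, with 20.4 ± 0.59 FPKM at 100 µM and 18.1 ± 0.69 in HBSS (SD, n = 3 each).

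In the squalene and sterol arm 9 of 11 members were higher at 100 µM, with a median of 0.049. Without HBSS replicate 1 that median was −0.00022 with 5 higher and 6 lower, and without HOCl 100 µM replicate 1 it was −0.0021. With the trend on exon length removed it was 0.11, with 10 of 11 higher, above that of the mevalonate arm. Nsdhl, a dehydrogenase that helps to strip methyl groups from the sterol ring, had 24.3, 22.2 and 21.5 FPKM at 100 µM, against 18.3, 20.7 and 19.7 FPKM in HBSS. Every 100 µM library was above every HBSS library, with a log2 difference of 0.20 (SE 0.089, limma adjusted p = 0.636, and 0.0811 on the 10 libraries). Ebp, a sterol isomerase, averaged 17.4 ± 0.82 FPKM at 100 µM and 15.2 ± 1.2 in HBSS, and Fdft1, the squalene synthase, 23.5 ± 0.96 and 21.2 ± 0.75 (SD, n = 3 each). The groups of both were separate. Pmvk, Ebp and Fdft1 are named here after their values were seen. In all, 5 members, Ebp, Fdft1, Mvk, Nsdhl and Pmvk, had every 100 µM library above every HBSS library, which is 16.7% of the 30 and close to the 16.5% of all genes that did so. The reverse held for Mylip alone, or 3.33%, against 17.6% of all genes.

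The regulators were nearly level at 100 µM. Srebf2 had 54.8, 49.3 and 56.0 FPKM at 100 µM, against 56.0, 54.0 and 55.5 FPKM in HBSS. Srebf1, whose SREBP drives fatty acid genes more than sterol genes, had 31.8, 27.8 and 30.8 FPKM at 100 µM, against 30.6, 29.0 and 31.8 FPKM in HBSS. In both genes the groups overlapped and 100 µM replicate 2 stood lowest. Scap had 5.11, 4.82 and 5.43 FPKM at 100 µM, against 5.00, 5.01 and 5.19 FPKM in HBSS. Insig1, itself a target of SREBP, had 36.0, 29.7 and 30.3 FPKM at 100 µM, against 30.0, 32.9 and 32.7 FPKM in HBSS. For Insig1 100 µM replicate 1 stood highest, the other two lay near or below the lowest HBSS library, and the difference was 0.0027. The 95% confidence intervals of these 4 genes lay between −0.24 and 0.25 on the log2 scale in the 12-library fit, and between −0.17 and 0.17 on the 10 libraries.

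Of the 4 LXR and efflux genes tested 1 was higher and 3 lower at 100 µM, with a median of −0.14, or 2 and 2 with a median of −0.027 once the trend on exon length was removed. They held the member with the smallest p. Mylip, an LXR target whose product marks lipoprotein receptors for degradation, had 5.44, 4.34 and 4.46 FPKM at 100 µM, against 6.37, 5.88 and 6.39 FPKM in HBSS. All 100 µM libraries lay below all HBSS libraries, with a log2 difference of −0.33 (SE 0.098, 95% confidence interval −0.55 to −0.12). It was not called over all genes (limma adjusted p = 0.602, and 0.0750 on the 10 libraries). Abca1, which loads cholesterol onto apolipoprotein A-I, had 26.9, 20.4 and 18.6 FPKM at 100 µM, against 27.1, 23.7 and 27.3 FPKM in HBSS. Its first 100 µM library stood within the HBSS range and the other two below it. Abcg1, which hands cholesterol to larger lipoprotein particles, had 48.3, 44.4 and 45.2 FPKM at 100 µM, against 50.6, 45.2 and 45.7 FPKM in HBSS, with groups that overlapped. Soat1 had 67.0, 64.0 and 63.1 FPKM at 100 µM, against 75.8, 66.3 and 69.1 FPKM in HBSS. The groups overlapped narrowly, with a difference of −0.12 (SE 0.086, limma adjusted p = 0.686). Soat1 has 9791 bases of exon, and with each library's trend on exon length removed its difference was 0.012.

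**Figure D2:**
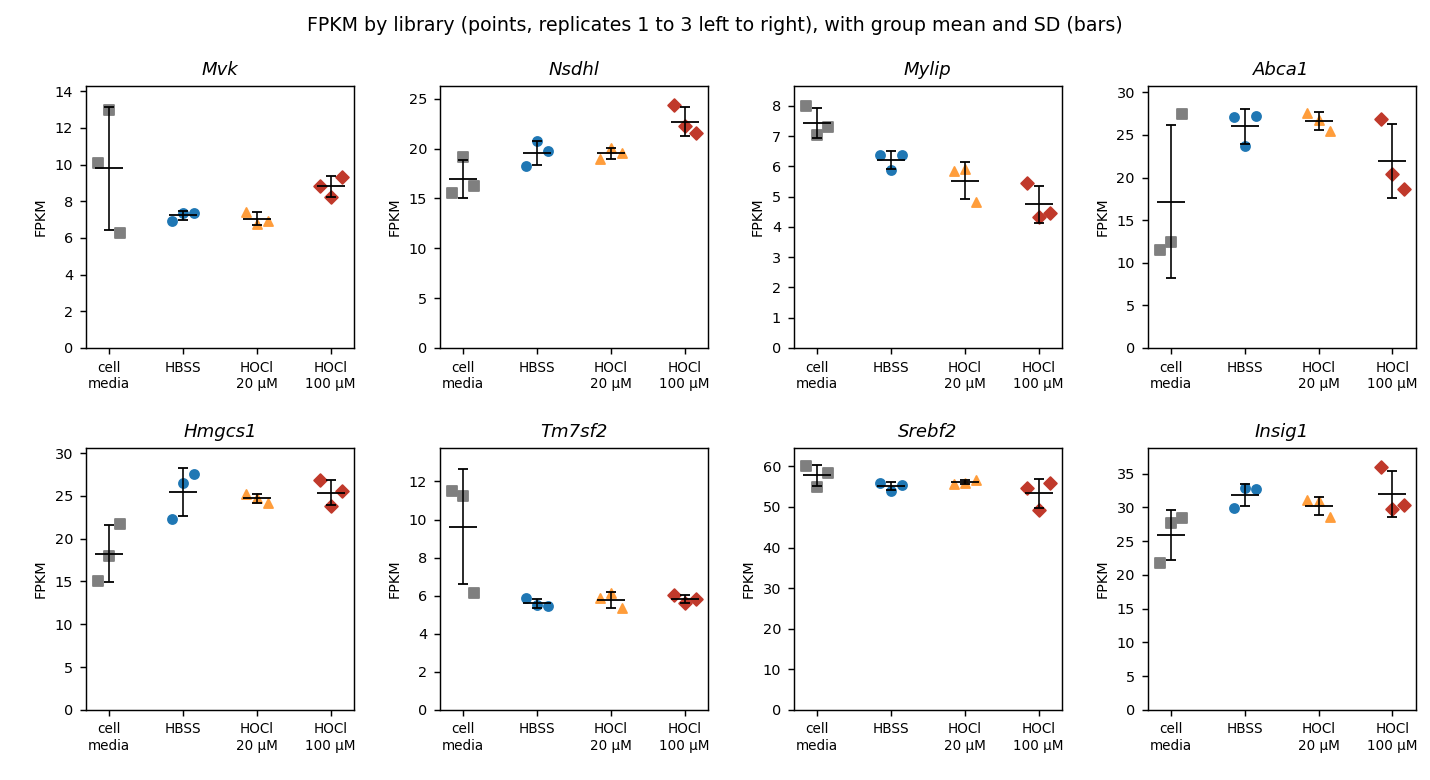
FPKM of 8 members by library, with points for replicates 1 to 3 and bars for the mean and SD of the 3 libraries of each group. Mvk and Nsdhl at 100 µM sit above HBSS and Mylip below it, while in Tm7sf2, Hmgcs1 and Abca1 the cell media libraries are spread out, with replicate 3 close to HBSS in Abca1 and Tm7sf2.

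At 20 µM HOCl, the members stood close to their HBSS levels, and limma with Benjamini-Hochberg adjustment called 0 of 30, against 0% of all genes, on 12 libraries and on 10. At an unadjusted p under 0.05 there were 0 members, against 1.08% of all genes, and 0 on the 10 libraries, against 3.08%. In 0 members did every 20 µM library lie above every HBSS library, or below, against 4.21% of all genes above and 3.48% below, or 7.69% either way. The members split evenly, 15 above HBSS and 15 below it (median log2 difference 0.0023), against 0.0057 over all genes. That median was −0.035 without HBSS replicate 1, and 22 of the 30 members turned direction when some single library was left out. The confidence intervals reached from −0.54 to 0.60, both ends belonging to Abca1.

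Among single members at 20 µM, Mylip again had the smallest p, with 5.86, 5.91 and 4.81 FPKM at 20 µM, against 6.37, 5.88 and 6.39 FPKM in HBSS. Replicate 3 of the 20 µM group stood apart from the rest, and the difference was −0.15 (SE 0.098, limma adjusted p = 1.0). Srebf1 had 31.4, 31.4 and 32.1 FPKM at 20 µM, against 30.6, 29.0 and 31.8 FPKM in HBSS, a difference of 0.055 with overlapping groups. Fdps had 1.66, 1.64 and 1.35 FPKM at 20 µM, against 1.21, 2.03 and 2.08 FPKM in HBSS. The HBSS libraries of Fdps spread more widely than the difference of −0.11 (SE 0.15). Insig1 had 31.1, 30.9 and 28.6 FPKM at 20 µM, against 30.0, 32.9 and 32.7 FPKM in HBSS, a difference of −0.073. Fasn had 65.3, 64.7 and 69.1 FPKM at 20 µM, against 58.8, 64.8 and 68.1 FPKM in HBSS, and its difference of 0.056 was −0.00094 without HBSS replicate 1. Hsd17b7, a reductase of the sterol arm, had 12.8, 12.9 and 13.4 FPKM at 20 µM, against 10.7, 12.9 and 13.6 FPKM in HBSS. Its difference of 0.073 was −0.022 without HBSS replicate 1, the library that was low in both genes. The other regulators and exporters overlapped between the groups. Srebf2 had 55.7, 56.0 and 56.6 FPKM at 20 µM, against 56.0, 54.0 and 55.5 FPKM in HBSS. Scap had 5.06, 5.17 and 5.36 FPKM at 20 µM, against 5.00, 5.01 and 5.19 FPKM in HBSS. The exporters overlapped too. Abca1 had 27.5, 26.8 and 25.5 FPKM at 20 µM, against 27.1, 23.7 and 27.3 FPKM in HBSS. Abcg1 had 48.5, 47.9 and 47.1 FPKM at 20 µM, against 50.6, 45.2 and 45.7 FPKM in HBSS.

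**Figure D3:**
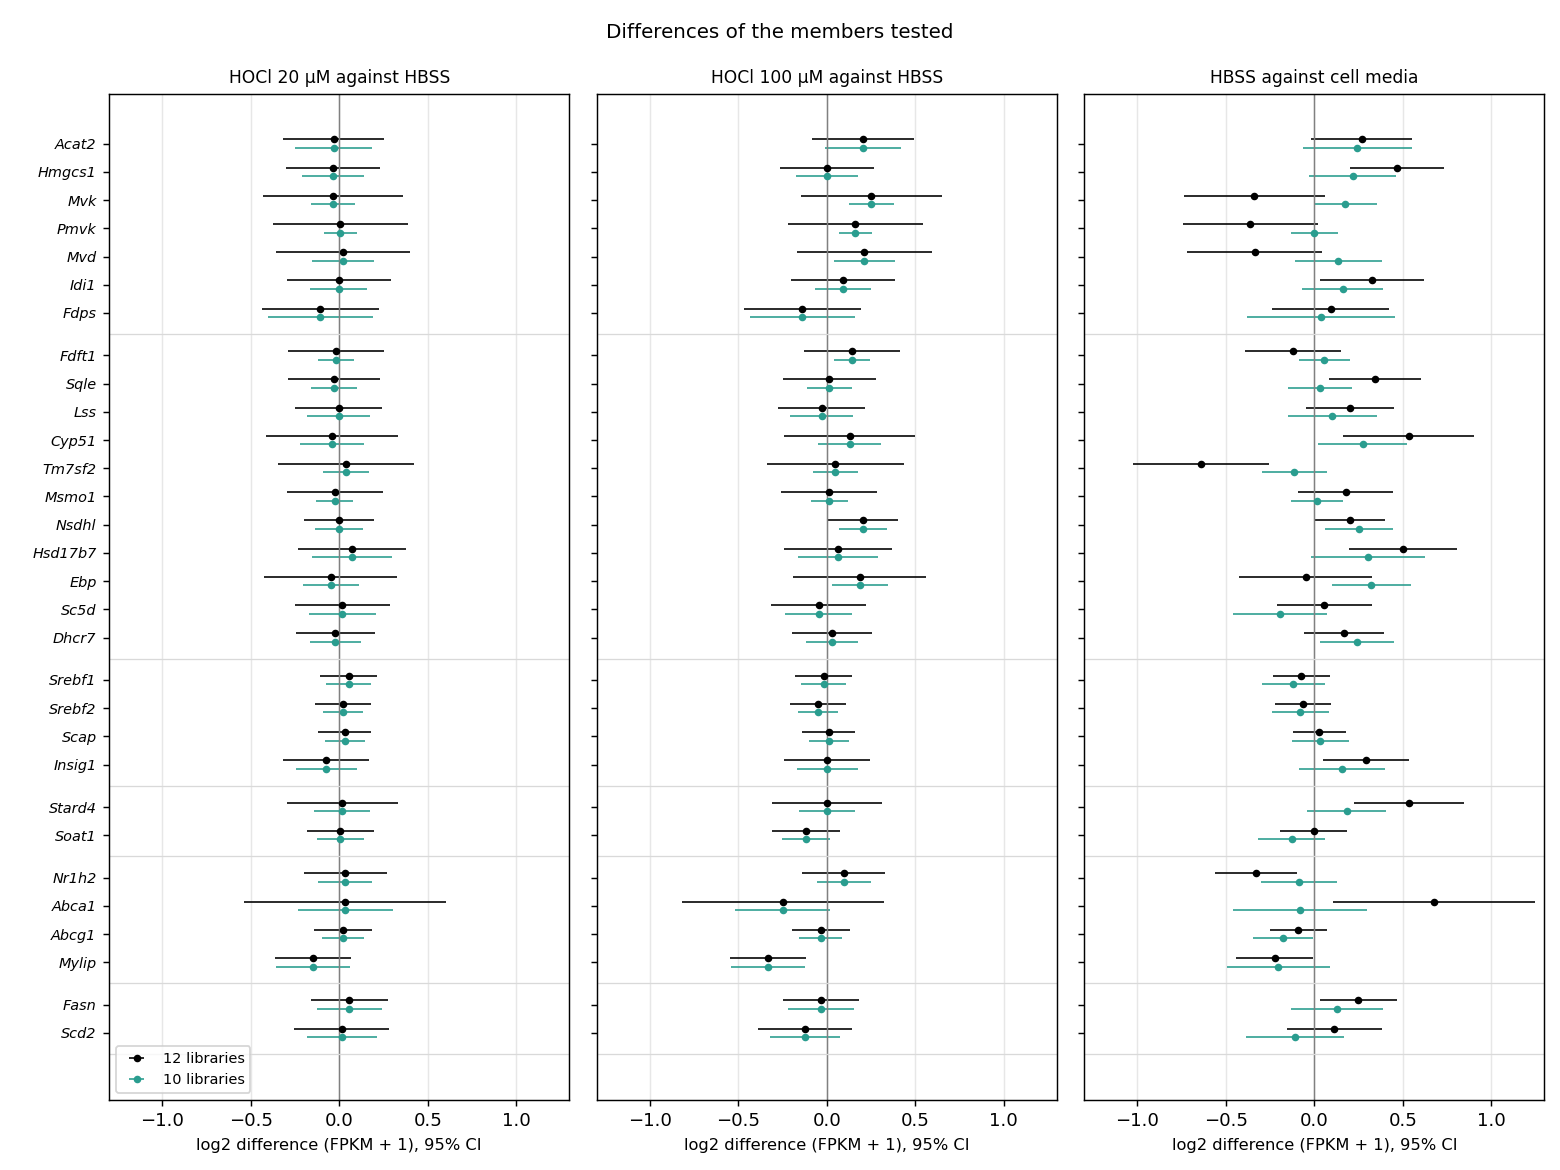
Log2 differences of FPKM + 1 for the 30 members with 95% confidence intervals, for 20 µM against HBSS, 100 µM against HBSS and HBSS against cell media, from the fit of all 12 libraries (black) and of the 10 without cell media replicates 1 and 2 (green). At 20 µM every interval crosses 0, at 100 µM those of Nsdhl and Mylip do not in the 12-library fit, and HBSS against cell media changes most between the fits, with Tm7sf2 at −0.64 and −0.11.

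The comparison of 100 µM with 20 µM used the same 100 µM libraries as that with HBSS. At 100 µM 6 of 7 members of the mevalonate arm and 8 of 11 of the sterol arm stood above 20 µM, at medians of 0.16 and 0.045. With the trend on exon length removed it was 6 of 7 at 0.095 and 10 of 11 at 0.11, and without HOCl 100 µM replicate 1 the sterol arm had 6 of 11 at 0.016. In this comparison limma with Benjamini-Hochberg adjustment called 0 of 30 members, against 0% of all genes, on 12 libraries and on 10. There was 1 member at an unadjusted p under 0.05, against 4% of all genes, and 8 on the 10 libraries, 7 higher and 1 lower, against 26.2% of all genes. Each 100 µM library lay above each 20 µM library in 7 members, Acat2, Cyp51, Ebp, Fdft1, Mvk, Nsdhl and Pmvk, which is 23.3% of the 30, where 12.7% of all genes did so. The reverse held in 1 member, Soat1, against 15.6% of all genes. The members' split was 16 higher and 14 lower with a median of 0.023, against 46.2% of all genes higher with a median of −0.017. Without HOCl 100 µM replicate 1 the members' median was −0.012.

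Nsdhl was the member at an unadjusted p under 0.05, with 24.3, 22.2 and 21.5 FPKM at 100 µM, against 19.0, 20.1 and 19.5 FPKM at 20 µM. The log2 difference was 0.21 (SE 0.089, limma adjusted p = 0.825), with separate groups. Mvk had 8.84, 8.24 and 9.33 FPKM at 100 µM, against 7.43, 6.74 and 6.94 FPKM at 20 µM, a difference of 0.29 (SE 0.18). Ebp had 16.5, 17.6 and 18.1 FPKM at 100 µM, against 13.6, 14.8 and 15.5 FPKM at 20 µM, a difference of 0.23 (SE 0.17). In each of these enzymes the lowest 100 µM library was above the highest 20 µM library. Acat2 had 52.9, 42.4 and 44.7 FPKM at 100 µM, against 38.6, 39.6 and 39.6 FPKM at 20 µM, a difference of 0.24 (SE 0.13). Mylip had 5.44, 4.34 and 4.46 FPKM at 100 µM, against 5.86, 5.91 and 4.81 FPKM at 20 µM, a difference of −0.18 (SE 0.098). The Mylip groups overlapped through 20 µM replicate 3. Soat1 had 67.0, 64.0 and 63.1 FPKM at 100 µM, against 73.9, 70.8 and 67.0 FPKM at 20 µM, with a difference of −0.12 (SE 0.086) that was 0.0077 with the trend on exon length removed. The limma adjusted p was 0.825 for each of these members.

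Between HBSS and cell media the members spread most, and the spread followed cell media replicates 1 and 2. In HBSS 4 of 7 members of the mevalonate arm and 8 of 11 of the sterol arm stood above cell media, at medians of 0.091 and 0.18. It was 6 of 7 and 9 of 11 against replicate 3 alone, and 4 of 7 and 5 of 11, at 0.0027 and −0.0018, with the trend on exon length removed. In this comparison limma with Benjamini-Hochberg adjustment called 0 of 30 members, against 0.0166% of all genes. At an unadjusted p under 0.05 there were 13 members, 10 higher and 3 lower in HBSS, against 40% of all genes. With cell media replicate 3 as the lone cell media library, assumed to vary like the other groups, 0 members were called and 5 had an unadjusted p under 0.05, against 6.84% of all genes. Every HBSS library lay above every cell media library in 9 members, Cyp51, Fasn, Hmgcs1, Hsd17b7, Idi1, Insig1, Lss, Sqle and Stard4, which is 30% of the members, where 12.7% of all genes did so. The opposite order held in 3 members, Mylip, Nr1h2 and Tm7sf2, or 10%, where 8.91% of all genes did so. There were 18 members higher and 12 lower with a median of 0.10, the same as over all genes, of which 61.2% were higher. Against cell media replicate 3 alone the members' median was 0.047, against −0.014 over all genes.

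Hmgcs1, the synthase that commits acetyl units to the pathway, had 22.3, 26.5 and 27.6 FPKM in HBSS, against 15.1, 17.9 and 21.7 FPKM in cell media. All HBSS libraries were higher, with cell media replicate 3 nearest to them, and the log2 difference was 0.47 (SE 0.12, limma adjusted p = 0.0711). Against that library alone it was 0.22. Stard4, a carrier that ferries sterol through the cytosol, had 13.4, 14.8 and 15.6 FPKM in HBSS, against 7.64, 9.55 and 12.7 FPKM in cell media, a difference of 0.53 that was 0.18 against replicate 3 alone. Cyp51, the lanosterol demethylase, had 19.8, 23.3 and 24.7 FPKM in HBSS, against 10.7, 17.8 and 18.5 FPKM in cell media, a difference of 0.53 that was 0.27 against replicate 3 alone. In Hsd17b7, with 10.7, 12.9 and 13.6 FPKM in HBSS, against 6.62, 9.10 and 9.80 FPKM in cell media, the difference was 0.50, and 0.30 against replicate 3 alone. For these 4 genes the sign was kept in both fits and the size was smaller in the second.

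The 2 remaining members of smallest p stood lower in HBSS. Tm7sf2, a sterol reductase, had 5.86, 5.51 and 5.43 FPKM in HBSS, against 11.5, 11.2 and 6.13 FPKM in cell media. Its difference of −0.64 (SE 0.17, limma adjusted p = 0.0711) was −0.11 against replicate 3 alone, which lay close to HBSS. Nr1h2 had 16.7, 15.6 and 15.5 FPKM in HBSS, against 22.3, 21.9 and 17.0 FPKM in cell media, and its difference of −0.33 (limma adjusted p = 0.0718) was −0.089 against replicate 3 alone. Abca1 showed the same pattern upward, with 27.1, 23.7 and 27.3 FPKM in HBSS, against 11.6, 12.4 and 27.5 FPKM in cell media. Cell media replicate 3 of Abca1 lay above all HBSS libraries, so the difference of 0.68 rested on the other two and was −0.080 without them. Insig1 had 30.0, 32.9 and 32.7 FPKM in HBSS, against 21.7, 27.7 and 28.4 FPKM in cell media. All HBSS libraries of Insig1 lay above all cell media libraries. Srebf1 had 30.6, 29.0 and 31.8 FPKM in HBSS, against 30.7, 32.5 and 33.1 FPKM in cell media. Srebf2 had 56.0, 54.0 and 55.5 FPKM in HBSS, against 60.1, 55.0 and 58.3 FPKM in cell media. These groups overlapped, and so did the next. Scap had 5.00, 5.01 and 5.19 FPKM in HBSS, against 5.21, 4.72 and 4.92 FPKM in cell media. Abcg1 had 50.6, 45.2 and 45.7 FPKM in HBSS, against 48.5, 48.9 and 53.4 FPKM in cell media. With the trend on exon length removed the log2 differences were −0.24 for Srebf1, −0.28 for Srebf2, −0.20 for Scap and −0.31 for Abcg1, against −0.074, −0.065, 0.028 and −0.090 before. Then 3 of the 4 SREBP control genes and all 4 LXR and efflux genes tested had an unadjusted p under 0.05, against 37.3% of all genes. The smallest limma adjusted p among them was 0.0648. These values rested in part on cell media replicates 1 and 2. Against replicate 3 alone, with that trend removed, the SREBP control genes were 2 higher and 2 lower. Their median was 0.0087, against −0.22 on the 12 libraries. The LXR and efflux genes had a median of −0.12, against −0.27 on the 12 libraries.

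Cell media replicates 1 and 2 lay above all 10 other libraries in 4 members, Mvd, Mvk, Nr1h2 and Tm7sf2, or 13.3% of the 30, where 19.2% of all genes did so. They lay below all of them in 8 members, Abca1, Cyp51, Fasn, Hmgcs1, Hsd17b7, Insig1, Sqle and Stard4, or 26.7%, where 37.2% of all genes did so. Exon length moved with this split. In the longest of 3 length classes of all genes, of median exon length 7559 bases, the median log2 difference from the HBSS mean was −0.38, −0.41 and 0.040 in cell media replicates 1, 2 and 3. In the shortest class, of median exon length 1247 bases, it was 0.11, 0.25 and −0.00059. The 100 µM libraries leaned the same way, at −0.033, −0.12 and −0.14 for the long genes and 0.069, 0.12 and 0.13 for the short ones. Members differ widely in length, as Mvd has 1859 bases of exon and Abca1 10363. With each library's trend on exon length removed, 24 members were higher and 6 lower for 100 µM against HBSS. Their median was 0.084, against 0.017 over all genes, of which 54.3% were higher. For 20 µM against HBSS it was 14 and 16 (median −0.0038, against −0.0012 over all genes, 49.2% higher). Between the doses it was 24 and 6 (median 0.063, against 0.016 over all genes, 54.3% higher). HBSS against cell media gave 12 and 18 (median −0.044, against 0.0045 over all genes, 50.6% higher). No fit with this trend removed left out a library of HBSS or HOCl. Mvk was then 0.22, Nsdhl 0.18 and Mylip −0.35 at 100 µM against HBSS, and 0 members were called in any of the 4 comparisons, against 0.151% of all genes for HBSS against cell media and 0% in the others. Members at an unadjusted p under 0.05 then numbered 2 for 100 µM against HBSS, against 9.62% of all genes, 0 for 20 µM against HBSS, against 1.29%, 1 for 100 µM against 20 µM, against 4.87%, and 17 for HBSS against cell media, against 37.3%.

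**Figure D4:**
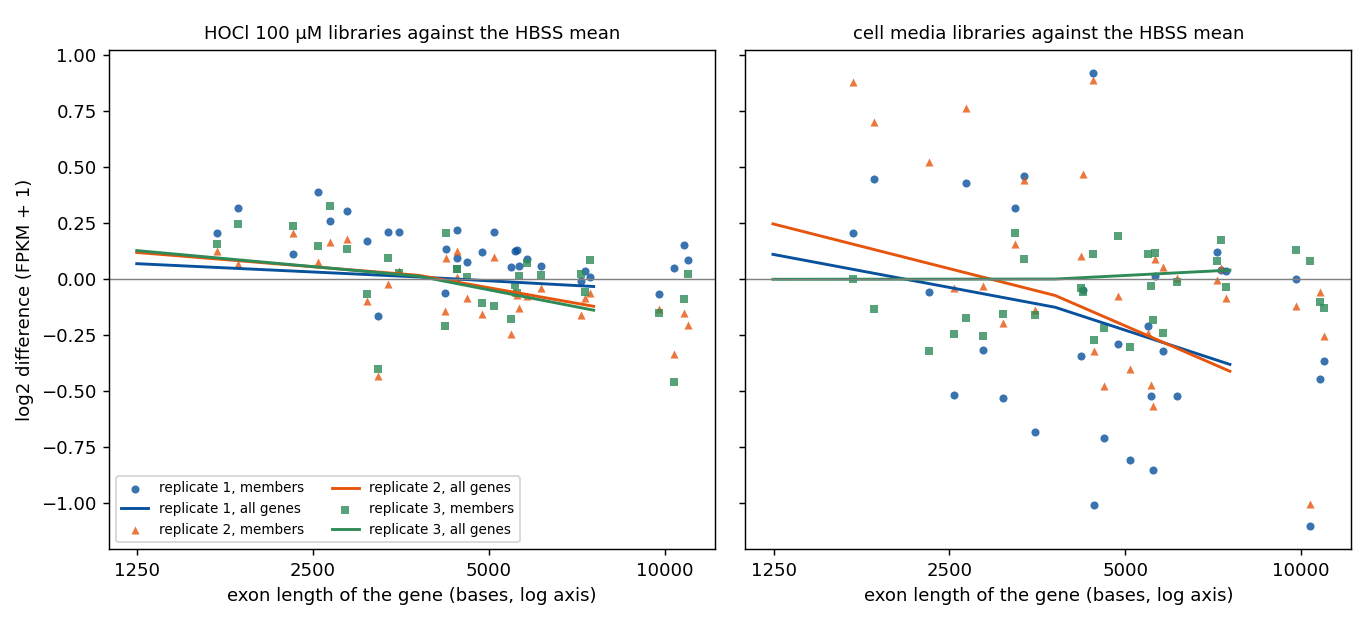
Log2 difference of FPKM + 1 from the HBSS mean against exon length (log axis) for each 100 µM library (left) and each cell media library (right), with points for members and lines through the medians of all genes in 3 length classes. Cell media replicates 1 and 2 slope down to −0.38 and −0.41 in the long class while replicate 3 is flat, and the 100 µM libraries slope down to between −0.033 and −0.14.

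In some groups most synthesis genes were lowest or highest in the same library. Over the 18 members of the mevalonate and sterol arms, HOCl 100 µM replicate 1 was the highest 100 µM library in 15, where it was so in 43.5% of all genes, and HBSS replicate 1 was the lowest HBSS library in 15, where it was so in 41.4% of all genes. At 20 µM no library stood out as much, with replicate 1 highest in 9 and replicate 3 lowest in 10. Their summed level was 300.2, 397 and 340.1 FPKM in cell media replicates 1 to 3, 349.4, 387.2 and 382 in HBSS, 373.3, 368.7 and 363.6 at 20 µM and 426.3, 379.9 and 393 at 100 µM. The sums of 100 µM and HBSS overlapped, since 100 µM replicate 2 lay below HBSS replicates 2 and 3. Cell media replicate 2 was the highest of its group in 12 of the 18 genes (29.2% of all genes) and replicate 1 the lowest in 12 (37.0% of all genes), so these libraries, alike in other ways, differed from each other in this pathway. The macrophage marker sum was higher in every 100 µM library than in every HBSS library, but its genes did not all move together. Lyz2, with 1316 bases of exon, averaged 2716 FPKM at 100 µM and 2155 in HBSS. Means of Cd68, Cd14, Csf1r, Itgam and Mertk were also higher at 100 µM. Those of Fcgr1 (27.4 against 28.7 FPKM in HBSS) and Adgre1 (7.54 against 7.997) were lower. The part of macrophage content or of exon length in these values was not tested.

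Genes of the same pathways outside the 31 gave 28 that passed the filter. Of these, limma with Benjamini-Hochberg adjustment called 0 in any of the 4 comparisons. Over all genes it called 0.0166% for HBSS against cell media and 0% in the others. At 100 µM 12 of the 28 stood above HBSS and 16 below it, where 48.5% of all genes were higher. It was 17 and 11 with the trend on exon length removed, where 54.3% of all genes were higher. In the 12-library fit 1 of the 28 had an unadjusted p under 0.05, against 7.76% of all genes. The gene of smallest p was Me1, the malic enzyme that supplies NADPH for lipid synthesis, at 10.2 ± 0.33 FPKM at 100 µM and 8.77 ± 0.52 in HBSS (log2 difference 0.20, limma adjusted p = 0.625). Lrp1, a large endocytic lipoprotein receptor, differed by −0.32, Ncor1, a corepressor of nuclear receptors, by −0.34 and Mbtps2, a protease that frees SREBP from the membrane, by −0.25, all of them long genes. With the trend on exon length removed these were −0.11, −0.17 and −0.12. At 20 µM 16 were higher and 12 lower, where 53.9% of all genes were higher. Me1 stood at 9.85 ± 0.58 FPKM at 20 µM and 8.77 ± 0.52 in HBSS. These groups overlapped, as 20 µM replicate 3 at 9.23 lay below HBSS replicate 2 at 9.33. The limma adjusted p was 0.9999 for each of the 28 at 20 µM. Between the doses 9 were higher at 100 µM and 19 lower, where 46.2% of all genes were higher. It was 14 and 14 with that trend removed, where 54.3% of all genes were higher. Lrp1 differed by −0.37 (−0.16 with the trend removed) and Scd1, another fatty acid desaturase, by −0.22. Between HBSS and cell media 19 stood higher in HBSS and 9 in cell media, where 61.2% of all genes were higher in HBSS. At an unadjusted p under 0.05 there were 10 of the 28, against 40% of all genes. Against cell media replicate 3 alone 9 stood higher in HBSS and 19 in cell media, where 45.8% of all genes were higher in HBSS. Msr1, a scavenger receptor of macrophages, stood at 121 ± 9.9 FPKM in HBSS and 77.3 ± 28 in cell media, and Rxrb, a partner of LXR, at 16.7 ± 0.97 in HBSS and 24.1 ± 4.8 in cell media (limma adjusted p = 0.0711 for both). By library, cell media replicates 1 to 3 had 51.5, 72.9 and 108 FPKM for Msr1 and 28.6, 24.7 and 19.1 for Rxrb. In both genes replicate 3 lay nearest to HBSS.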

How the data were processed

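Messenger RNA of 12 libraries was measured. The deposited table held FPKM values by the authors for 28977 gene IDs. HISAT2, featureCounts and the GRCm39 build are named in the submitters' processing notes, but for versions and strand settings the entry is: not given in the sources used here. Which of the 2 instruments in the labels read which library is likewise not stated. FPKM divides by exon length and depth, so counts per gene were not used in tests. Reads per library were recovered from FPKM times exon length, where at least 98.1% of values below 1 FPKM were whole within 0.01 of a read in each library. Fdft1 was the member whose reads were not whole, by up to 0.476 of a read, and the authors' length for it may differ from that of the annotation. Symbols and exon lengths came from GENCODE M21, of another build, and no coordinates were taken from it. Exon length was that of all annotated exons of a gene merged, which can exceed the length of its mRNA.

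Values were log2(FPKM + 1), for genes with at least 1 FPKM in at least 3 libraries. A log2 difference on this scale understates changes of low genes. Each comparison was tested two-sided by limma 3.58.1 (R 4.3.3) in a single model of the 12 libraries with a mean per group and a mean-variance trend, with Benjamini-Hochberg adjustment over 12026 genes and calls at an adjusted p under 0.05. Per comparison, members called and up to 6 members of smallest unadjusted p are named with their differences; Srebf1, Srebf2, Scap, Insig1, Abca1 and Abcg1 are given by library in each group. Members, lists and tests were chosen with earlier results of these data known. Alternatives were other pseudocounts, filters and scalings, a model of 2 groups, no trend, a replicate block, 10 libraries, each library left out and, added after the data were seen, removal of each library's loess trend on exon length. Same-numbered replicates of different groups deviated together in some pairs and not in others, so the main model took no pairing. The fit was tested on simulated data. Tables and plots used Python 3.11.15, pandas 2.3.3, numpy 2.4.6 and matplotlib 3.10.9.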

Additional observations from a re-analysis of the deposited data

How the results depend on the processing

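The 30 members gave 0 calls in each comparison under nearly all alternatives. One exception was the replicate block on the 10 libraries. It called 5 of 30 members for 100 µM against HBSS (Ebp, Mvk, Mylip, Nsdhl and Pmvk), among 2979 of 12026 genes. For 100 µM against 20 µM it called 3 of 30 (Ebp, Mvk and Pmvk), among 2088 of 12026. The other was HBSS against cell media without cell media replicate 3, with 14 of 30 members, among 7852 of 12026 genes. In each of these a smaller share of the members than of all genes was called. Whether replicate numbers pair the libraries is not known. Correlations of same-numbered deviations ran from −0.062 to 0.41, and those of differently numbered ones from −0.41 to 0.28. For 100 µM against HBSS on the 10 libraries, the median SE was 0.059 with the block and 0.073 without it. The block on all 12 libraries called 0 members and 193 genes in HBSS against cell media. The block on 10 libraries called 0 genes there.

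Genes called for 100 µM against HBSS were 1 with no filter, 2 with the 2 groups alone, 29 on the 10 libraries, 26 with the length trend also removed, and 0 to 5 with a library left out (5 without cell media replicate 3, 1 without HBSS replicate 3). For 20 µM against HBSS they were 6 with no filter. Between the doses they were 11 with no filter, 1 with the 2 groups alone, and 0 to 1 with a library left out (1 without HBSS replicate 3). For HBSS against cell media, where the value was 2, they were 5 with no filter or no trend, 1 with a mean of at least 5 FPKM, 4 with quantile normalization, 18 with the length trend removed, 0 with the 2 groups alone or on the 10 libraries with or without that trend, and 0 to 7852 with a library left out.

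The members' median for HBSS against cell media was −0.014 with median-of-ratios scaling, which moved the median of all genes from 0.10 to −0.013, so higher and lower members numbered 15 and 15. It was −0.044 with the length trend removed. The median for 20 µM against HBSS ran from −0.035 to 0.014 with a library left out. Leaving out some single library turned the direction of 14 members for 100 µM against HBSS, 22 for 20 µM against HBSS, 9 between the doses and 6 for HBSS against cell media. Of the members named by smallest p, directions turned for Soat1 with the length trend removed, at 0.012 for 100 µM against HBSS and 0.0077 against 20 µM on 12 or 10 libraries, and without HBSS replicate 1 for Fasn at −0.00094 (range −0.00094 to 0.10) and Hsd17b7 at −0.022 (range −0.022 to 0.14) at 20 µM. With 3 libraries a group, the median SE of the 12-library fit was 0.13, which limits what could be called. For 100 µM against HBSS, with the same 3 libraries a group, it was 0.073 on the 10 libraries and 0.077 with the 2 groups alone. The causes of these changes were not tested.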
